A study of Mus musculus with 9 samples.

Results

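The genes described here are 10 receptors of the tumour necrosis factor (TNF) superfamily: Tnfrsf1a, Tnfrsf1b, Tnfrsf12a, Tnfrsf10b, Tnfrsf11b, Tnfrsf21, Tnfrsf19, Fas, Ltbr and Cd40. They were chosen by symbol from the 55385 genes of the table, and all 10 had at least 1 count in some library. RNA came from tdTomato-positive cells sorted from the kidneys of male mice aged 9 to 12 weeks. The uninjured group (Slc34a1IRES-CreERT2/+:R26RtdT/+, given tamoxifen) carried the label in cells that express Slc34a1, a phosphate transporter of the proximal tubule. The other groups (Sox9IRES-CreERT2/+:R26RtdT/+) had bilateral ischemia-reperfusion injury and carried the label in cells that express Sox9, a transcription factor of injured tubule epithelium. Animals of the 48 h group received tamoxifen at the time of injury, and those of the d14 group on days 10 and 12, with collection on day 14. Each group had 3 libraries, which the labels call biological replicates, and every animal carried the R26RtdT reporter. The Cre allele, the injury and the tamoxifen schedule change together between uninjured and injured cells and cannot be told apart. Between the 48 h and d14 groups the time after injury, the tamoxifen schedule and with it the cells that were labelled change together. These cannot be told apart either, so a difference between the times is not a change followed in the same cells. The sources do not say whether uninjured animals were sham-operated. The comparisons ask which receptors differ between uninjured proximal tubule cells and Sox9-labelled cells early and late after injury.

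TNF receptors are mostly membrane proteins that gather around trimeric ligands of the TNF family. Tnfrsf1a, Fas, Tnfrsf10b and Tnfrsf21 have a cytoplasmic death domain, and of these Tnfrsf1a, Fas and Tnfrsf10b can recruit adaptors that lead to caspase 8. Receptors without it (Tnfrsf1b, Tnfrsf12a, Ltbr, Cd40 and Tnfrsf19) bind TRAF proteins, which lead to the transcription factor NF-kappaB. Tnfrsf1a can lead to either outcome. In the kidney, TNF and its relative TWEAK (Tnfsf12) are studied as mediators of tubular inflammation and cell death after ischemia.

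Libraries held 31585507 to 51631204 counts in the uninjured group, 8036054 to 23794029 in the 48 h group and 19239354 to 30414758 in the d14 group. Levels are given as CPM, the counts of a gene relative to a library size scaled by TMM, a normalization that sets the bulk of genes equal between libraries, and levels of different genes are compared as CPM per kb of exon. Log2 fold changes are given ± SE from edgeR's quasi-likelihood fit to all 15519 genes that passed a filter on low counts, and a gene was called at a Benjamini-Hochberg adjusted p under 0.05. The TMM factors were 0.846 to 0.912 in uninjured and 48 h libraries but 1.21 to 1.48 at d14. Without them the all-gene median of the log2 fold changes moved from 0.06 to 0.63 for d14 against uninjured and from 0.05 to 0.63 for d14 against 48 h, so every d14 direction below is relative to the bulk of genes. The genes called in either direction were then 8732 for d14 against uninjured and 7746 for d14 against 48 h. With TMM scaling they were 7112 and 5137.

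Markers of several cell types moved with the groups. The summed level of 10 proximal tubule markers was 14800 to 16600 CPM in uninjured libraries, 5190 to 10300 CPM early and 2860 to 4050 CPM late after injury, and no marker of that list was at 0 in any group. For 6 markers of the loop of Henle the ranges were 380 to 483, 841 to 1080 and 3040 to 5630 CPM, with 4 called higher and 1 lower against uninjured cells at each time. Umod carried most of the d14 sum (means 129, 708 and 3420 CPM), whereas Cldn10 was called lower in every comparison (154, 92.2 and 49.9 CPM) and Egf held 80.5 to 114, 16.2 to 24.3 and 55.3 to 694 CPM with no call against uninjured cells. Of 6 principal cell markers 5 were called higher at each time, with sums of 55.8 to 78.4, 286 to 339 and 389 to 565 CPM. Mitochondrially encoded genes took 25.1 to 29.2% of the counts in uninjured libraries, 32.7 to 39.2% at 48 h and 15.2 to 25.2% at d14. Summed levels of 8 neutrophil markers were 2.84 to 8.14 CPM in uninjured libraries, 114, 223 and 349 CPM in 48 h replicates 1, 2 and 3, and 3.43 to 6.06 at d14. For 10 macrophage markers they were 28 to 31.2, then 176, 106 and 370, and 46.7 to 119 CPM at d14. All 6 tested neutrophil markers were called higher at 48 h, and 6 of the 10 macrophage markers were called higher at each time. Endothelial markers (8 genes) summed to 520 CPM in 48 h replicate 1, against 60.7 to 132 CPM in the other 48 h and the uninjured libraries and 31.0 to 49.8 at d14. In bulk libraries, more cells of a type and more RNA per cell cannot be told apart. The part of these markers in the receptor values was not tested. Leaving out a library does not test it for leukocytes, because every 48 h library had higher neutrophil and macrophage sums than any uninjured library.

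At 48 h, 4 of the 8 receptors that passed the filter rose over uninjured cells (Tnfrsf1a, Tnfrsf1b, Tnfrsf12a and Tnfrsf10b), where 17.4% of all tested genes were called higher. None of the 8 was called lower by edgeR, where 11.7% of all tested genes were. None of the receptors had a negative change at an unadjusted p under 0.05, and none was called lower at 48 h by DESeq2 or limma voom either. At d14 the same 4 receptors were higher than in uninjured cells, where 25.1% of all genes were called higher. Tnfrsf21 fell, where 20.7% of all genes did. Between d14 and 48 h no receptor was called higher, against 16.8% of all genes, and Tnfrsf12a, Tnfrsf21 and Ltbr were called lower, against 16.3%. No receptor was higher at d14 than at 48 h at an unadjusted p under 0.05, none was by DESeq2, and without TMM scaling Tnfrsf1a was. The median log2 fold change of the 8 tested receptors was 1.26 at 48 h, 1.62 at d14 and -0.42 between the times, beside 0.02, 0.06 and 0.05 over all tested genes. Tnfrsf11b and Tnfrsf19 did not pass the filter. Fas and Cd40 passed it and were not called in any comparison by edgeR with TMM scaling.

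**Figure D1:**
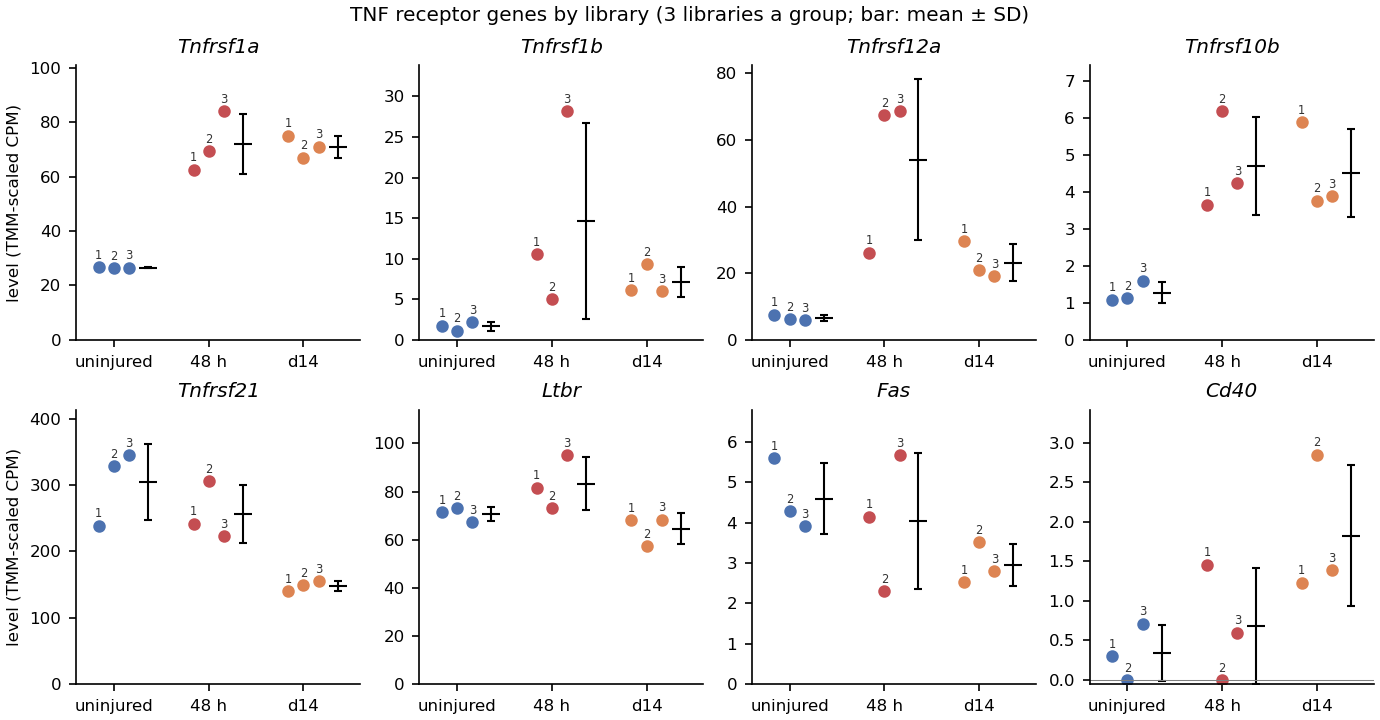
Level of the 8 tested TNF receptor genes in each library, as TMM-scaled CPM on linear axes that start at or just under 0. Points are libraries numbered by replicate, and bars are the mean ± SD of 3 libraries. Tnfrsf1a lies at 26.3 to 26.8 CPM in uninjured cells and at 62.6 to 84.1 CPM after injury, whereas Tnfrsf21 is lowest at d14.

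Tnfrsf1a (ENSMUSG00000030341.17, GRCm38 chr6:125349362-125362484, plus strand) encodes TNF receptor 1, the death-domain receptor through which soluble TNF acts on most cells. Its levels were 26.8, 26.3 and 26.5 CPM in uninjured libraries, 62.6, 69.4 and 84.1 CPM at 48 h and 75.1, 67 and 71 CPM at d14. All 6 libraries of injured kidneys were above all uninjured libraries, and the 48 h and d14 ranges overlapped. The log2 fold change was 1.44 ± 0.12 at 48 h (2.72-fold, edgeR adjusted p = 1.35e-05) and 1.4 ± 0.12 at d14 (2.68-fold, adjusted p = 3.87e-06). Between d14 and 48 h it was -0.02 ± 0.12 (adjusted p = 0.91), and without TMM scaling it was 0.55 (adjusted p = 0.0134). Leaving out 48 h replicate 3, the library with the highest neutrophil and macrophage sums, gave 1.31 for 48 h against uninjured (adjusted p = 3.34e-05). With 48 h replicates 1 and 3 both left out it was 1.38. The 48 h library then left, replicate 2, still had neutrophil (223 CPM) and macrophage (106 CPM) sums above all uninjured libraries.

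Tnfrsf12a (ENSMUSG00000023905.15, chr17:23675445-23677468, minus strand) encodes Fn14, the receptor for TWEAK, which has no death domain. The 48 h libraries held 26.2, 67.4 and 68.7 CPM, the uninjured libraries 7.62, 6.21 and 5.86 CPM, and the d14 libraries 29.6, 20.9 and 19.1 CPM. Both later groups lay wholly above uninjured cells, but 48 h replicate 1 fell inside the d14 range. Tnfrsf12a rose 8.19-fold at 48 h (log2 3.03 ± 0.36, edgeR adjusted p = 2.59e-04) and 3.53-fold at d14 (1.82 ± 0.34, adjusted p = 0.00173). At d14 it was 2.32-fold lower than at 48 h (-1.21 ± 0.33, adjusted p = 0.02). That last call was lost without 48 h replicate 2 (-1.03, adjusted p = 0.0612), 48 h replicate 3 (-0.99, 0.0671), d14 replicate 2 (-1.14, 0.07) or d14 replicate 3 (-1.09, 0.0773), without TMM scaling (-0.63, 0.192) and with no filter on low counts (-1.24, 0.0797). Without 48 h replicate 1, the library with the highest endothelial sum, it was -1.55 (adjusted p = 2.49e-04).

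Tnfrsf1b (ENSMUSG00000028599.10, chr4:145213463-145246870, minus strand) encodes TNF receptor 2, which lacks a death domain, binds TRAF2 and is abundant on leukocytes and endothelium. Levels were 1.76, 1.12 and 2.18 CPM in uninjured libraries, 10.6, 5.03 and 28.2 CPM at 48 h and 6.09, 9.30 and 5.99 CPM at d14. No injured library overlapped the uninjured range, and 48 h replicate 3 stood far above the rest. The gene rose 8.72-fold at 48 h (log2 3.13 ± 0.56, edgeR adjusted p = 0.00255) and 4.18-fold at d14 (2.06 ± 0.55, adjusted p = 0.0107). Between the later groups it was -1.06 ± 0.52 (adjusted p = 0.145). The same 48 h replicate 3 held the highest neutrophil (349 CPM) and macrophage (370 CPM) sums, and the order of the 48 h libraries by Tnfrsf1b was that of their macrophage sums. Without that library the 48 h change was 2.22 (adjusted p = 0.00487). From 48 h replicate 2 alone, the library with the lowest macrophage sum at that time, it was 1.55. Replicate 2 still had neutrophil (223 CPM) and macrophage (106 CPM) sums above all uninjured libraries. The part of such cells in the Tnfrsf1b values was therefore not tested.

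**Figure D2:**
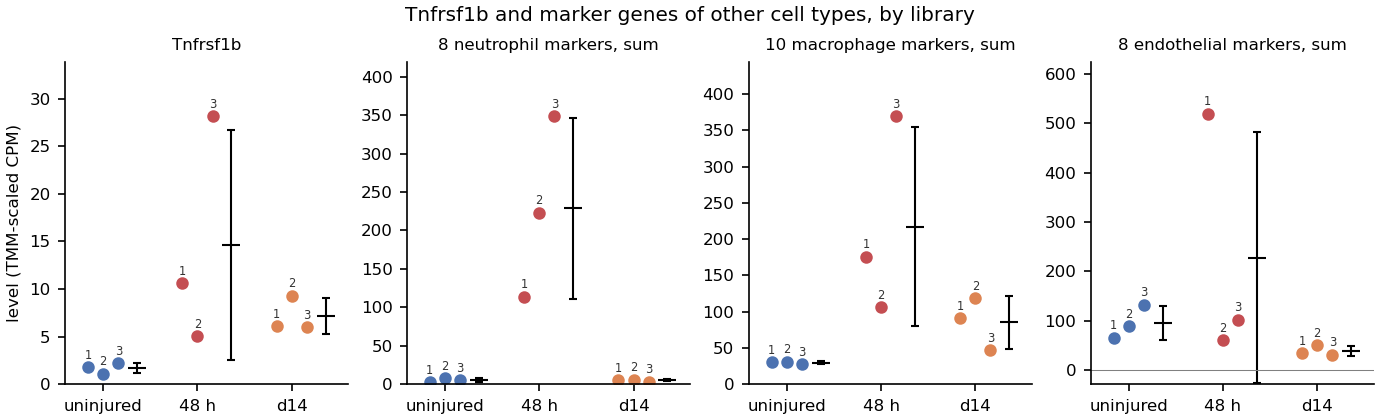
Tnfrsf1b beside the summed levels of neutrophil, macrophage and endothelial markers in each library, as TMM-scaled CPM on linear axes, with the mean ± SD of 3 libraries. At 48 h replicate 3 is highest for Tnfrsf1b (28.2 CPM) and for both leukocyte sums, while replicate 1 is highest for the endothelial sum (520 CPM).

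Tnfrsf10b (ENSMUSG00000022074.6, chr14:69767472-69784411, plus strand) encodes the death-domain receptor for TRAIL in the mouse. Per kb of exon it was the least abundant of the 4 receptors that rose. Uninjured libraries held 1.09, 1.12 and 1.60 CPM, 48 h libraries 3.65, 6.18 and 4.24 CPM, and d14 libraries 5.88, 3.76 and 3.89 CPM. The injured libraries were all above the uninjured ones and the later groups overlapped. It rose 3.65-fold at 48 h (log2 1.87 ± 0.39, edgeR adjusted p = 0.00478) and 3.54-fold at d14 (1.82 ± 0.39, adjusted p = 0.00249), with -0.04 ± 0.38 between the times (adjusted p = 0.943). Its highest 48 h value, from 43 counts, was in replicate 2, the library with the lowest macrophage and endothelial sums of that group. The neutrophil sum of replicate 2 (223 CPM) was above that of replicate 1 (114 CPM) and below that of replicate 3 (349 CPM). The part of these cells in the Tnfrsf10b values was not tested.

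Tnfrsf21 (ENSMUSG00000023915.5, chr17:43016555-43089189, plus strand) encodes death receptor 6, which carries a death domain. Levels were 239, 329 and 345 CPM in uninjured libraries, 242, 306 and 223 CPM at 48 h and 140, 149 and 155 CPM at d14. All d14 libraries were below all others, and the uninjured and 48 h ranges overlapped. At 48 h the log2 fold change was -0.25 ± 0.16 (edgeR adjusted p = 0.286). At d14 the gene was 2.06-fold lower than in uninjured cells (-1.04 ± 0.16, adjusted p = 3.20e-04) and 1.74-fold lower than at 48 h (-0.80 ± 0.16, adjusted p = 0.00385). Without TMM scaling these differences were -0.48 (adjusted p = 0.0226) and -0.22 (adjusted p = 0.263). The proximal tubule marker sum was lowest at d14 as well.

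Ltbr (ENSMUSG00000030339.7, chr6:125306571-125313885, minus strand) encodes the lymphotoxin beta receptor, which binds lymphotoxin heterotrimers and LIGHT and is known for activating NF-kappaB through the kinase NIK. It lies 35476 bases from Tnfrsf1a on the opposite strand, with Scnn1a between them. The levels of Ltbr were 71.4, 73.1 and 67.4 CPM in uninjured libraries, 81.7, 73.2 and 95.1 CPM at 48 h and 68.2, 57.2 and 68.3 CPM at d14. The uninjured and d14 ranges overlapped, and the lowest 48 h library lay only just above the highest uninjured library. Against uninjured cells its log2 fold changes were 0.24 ± 0.12 (edgeR adjusted p = 0.171) and -0.13 ± 0.12 (adjusted p = 0.427). For d14 against 48 h it was -0.37 ± 0.12, or 1.29-fold lower (edgeR adjusted p = 0.0397). This call was made under 9 of 20 alternatives. It was lost without 48 h replicate 3 (-0.26, adjusted p = 0.149), d14 replicate 2 (-0.28, 0.158), uninjured replicate 1 (0.0653), uninjured replicate 3 (0.0589), 48 h replicate 1 (0.065), d14 replicate 1 (0.0692) or d14 replicate 3 (0.0708), and without TMM scaling the sign turned (0.21, adjusted p = 0.312). So with TMM scaling this neighbour of Tnfrsf1a had no called change against uninjured cells where Tnfrsf1a rose 2.72-fold and 2.68-fold. Without TMM scaling Ltbr was called higher at d14 than in uninjured cells. The difference between the genes was not tested.

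Fas (ENSMUSG00000024778.13, chr19:34290666-34327772, plus strand), the death-domain receptor for Fas ligand, held 5.6, 4.28 and 3.91 CPM in uninjured libraries, 4.15, 2.30 and 5.67 CPM at 48 h and 2.53, 3.52 and 2.8 CPM at d14. The d14 libraries lay below the uninjured libraries, and the 48 h libraries spanned both. Log2 fold changes were -0.16 ± 0.38 at 48 h (edgeR adjusted p = 0.79), -0.64 ± 0.37 at d14 (adjusted p = 0.188) and -0.48 ± 0.38 between them (adjusted p = 0.364). With sample weights in limma voom the d14 difference was called (-0.71, adjusted p = 0.0408). Fas overlaps the small RNA gene Gm27818 on its strand, so counts there may be shared.

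Cd40 (ENSMUSG00000017652.16, chr2:165055627-165072948, plus strand), the receptor for CD40 ligand on B cells and antigen-presenting cells, was near the detection limit. It held 0.304, 0 and 0.711 CPM in uninjured libraries, 1.46, 0 and 0.599 CPM at 48 h and 1.23, 2.85 and 1.39 CPM at d14. All d14 libraries were above all uninjured ones, and the 48 h libraries overlapped each. Over a whole group these were 42, 39 and 158 counts. The log2 fold changes were 1.08 ± 1.2 at 48 h (edgeR adjusted p = 0.546), 2.39 ± 1.2 at d14 (adjusted p = 0.127) and 1.31 ± 1.18 between them (adjusted p = 0.423). The d14 difference was called by limma voom (3.14, adjusted p = 0.034), with sample weights in it (2.92, 0.0205) and by edgeR without TMM scaling (2.95, 0.0458). The sum of 6 B cell markers was 0 to 2.45 CPM in every library. The macrophage marker sum was 28 to 31.2 CPM in uninjured and 46.7 to 119 CPM in d14 libraries. Among the d14 libraries, replicate 2 was highest for both Cd40 and that sum. At 48 h replicate 3 had the highest macrophage sum (370 CPM) but less Cd40 than replicate 1. The part of such cells in the Cd40 values was not tested.

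Tnfrsf11b (ENSMUSG00000063727.3, chr15:54250619-54278484, minus strand) encodes osteoprotegerin, a secreted decoy that binds RANK ligand and TRAIL. It had 0 counts in all uninjured libraries, 6 counts in 48 h replicate 1 with 0 in the other 48 h libraries, and 7, 8 and 6 counts at d14. Over the d14 group that is 21 counts or 0.232 CPM (95% Poisson interval 0.144 to 0.355 CPM). This value is 8.82-fold the 0.0263 CPM that 0 counts allow over the uninjured group (3 counts). The fold takes 0.232 CPM as exact, so it is not a lower bound. Intervals and floors cover counting error only. The 48 h value rested on replicate 1, the library with the highest endothelial sum. Tnfrsf19 (ENSMUSG00000060548.13, chr14:60963875-61046490, minus strand), which encodes the orphan receptor TROY, had 1 count in all 9 libraries, also in 48 h replicate 1. Its level was below what this depth can show in any group, since 0 counts allow up to 0.0263 CPM in uninjured and 0.0332 CPM in d14 cells.

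**Figure D3:**
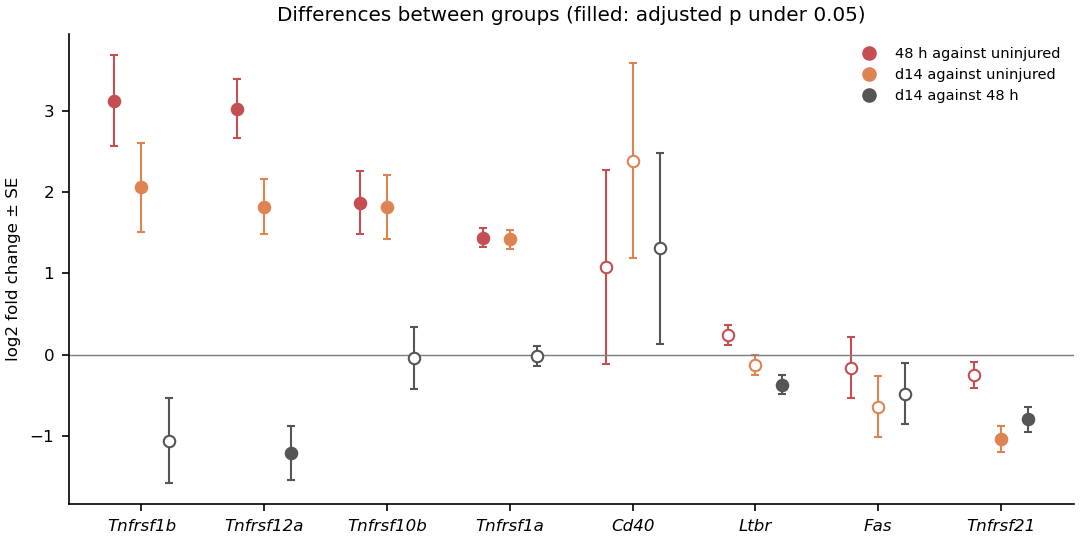
Log2 fold change ± SE (edgeR) of the 8 tested receptors in the 3 comparisons. Filled points are called at an adjusted p under 0.05. Tnfrsf1b, Tnfrsf12a, Tnfrsf10b and Tnfrsf1a are above 0 at both times (2.68-fold to 8.72-fold), and Tnfrsf21 is below 0 at d14 (-1.04, or -0.48 without TMM scaling).

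Per kb of exon, the most abundant receptor in every group was Tnfrsf21, at 74.1 ± 13.8 CPM per kb in uninjured cells (SD, n = 3), 62.5 ± 10.5 at 48 h and 36 ± 1.92 at d14. In uninjured cells it was followed by Ltbr (30.0 ± 1.25), Tnfrsf1a (10.2 ± 0.0872), Tnfrsf12a (3.40 ± 0.482), Fas (2.23 ± 0.432) and Tnfrsf1b (0.442 ± 0.140), each range clear of the next, while the ranges of Tnfrsf10b and Cd40 overlapped. At 48 h Ltbr (35.4 ± 4.70), Tnfrsf12a (28 ± 12.5) and Tnfrsf1a (27.8 ± 4.24) had overlapping ranges below Tnfrsf21. At d14 Ltbr (27.4 ± 2.71) and Tnfrsf1a (27.4 ± 1.56) overlapped, with Tnfrsf12a (12.0 ± 2.91) below them. Tnfrsf1b and Fas overlapped at both times.

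Shares within a library do not depend on how libraries are scaled to each other. Tnfrsf21 made up 54.8, 63 and 65.2% of the 10 receptors' summed CPM per kb in the uninjured group, 42.9, 43.6 and 31.2% of it at 48 h, and 30.4, 35.1 and 34.9% of it at d14. Tnfrsf1a made up 9.72, 8 and 7.94%, then 17.6, 15.7 and 18.7%, and 26.0, 25.1 and 25.3% at d14, so that its 3 groups did not overlap. The share of Tnfrsf12a was 2.87 ± 0.736% before injury, 16.9 ± 6.10% at 48 h and 11.1 ± 2.36% at d14. Ltbr kept a like share throughout, at 25.1 ± 3.20, 22.2 ± 3.64 and 25.5 ± 1.65%. The ratio of Tnfrsf21 to Tnfrsf1a per kb was 5.64, 7.88 and 8.21 in the uninjured group. It was 2.44, 2.78 and 1.67 at 48 h, then 1.17, 1.40 and 1.38 at d14. The ratio of Tnfrsf12a to Tnfrsf1a was 0.297 to 0.382 in uninjured cells, 0.562, 1.3 and 1.1 at 48 h and 0.361 to 0.529 at d14, so that only 48 h libraries reached 0.562 or more.

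**Figure D4:**
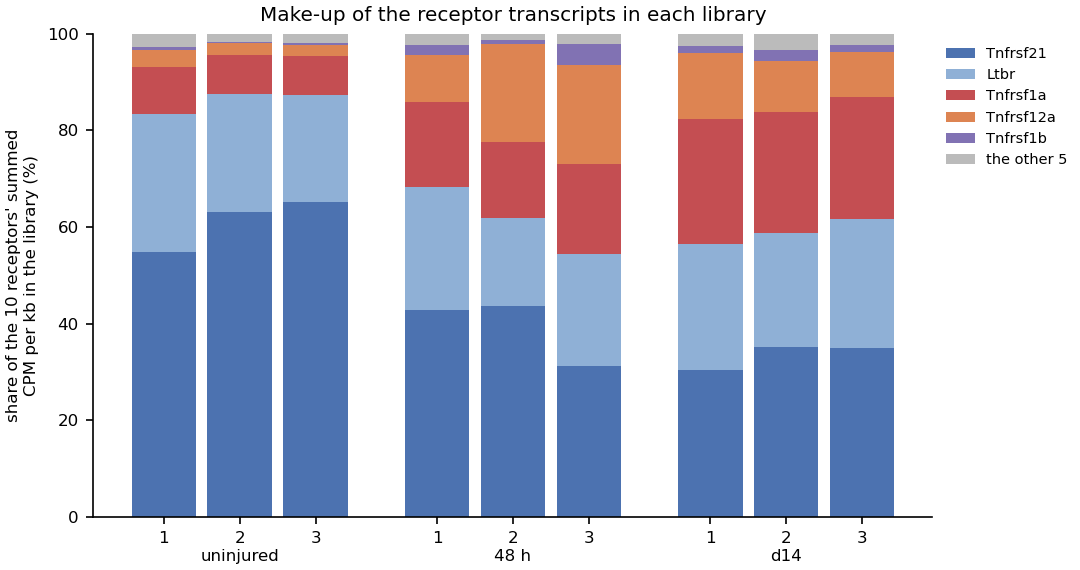
Share of each receptor in the summed CPM per kb of the 10 receptors, in percent, for each of the 9 libraries. The share of Tnfrsf21 falls from 54.8 to 65.2% in uninjured libraries to 30.4 to 35.1% at d14, while that of Tnfrsf1a is 7.94 to 9.72% and then 25.1 to 26.0%.

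The start regions of the 3 most abundant receptors that rose and of Tnfrsf21, which fell at d14, are set side by side because these genes moved in different directions. The 250 bases before the start site are shown 5′ to 3′ on the gene's strand from RefSeq (GRCm38.p6), in which 7 of the 10 receptors had an entry and Tnfrsf10b, Tnfrsf11b and Cd40 had none. Capitals mark the GC box GGGCGG on either strand, the letters bound by SP1-type factors. The regions are chr6:125349473-125349722 (plus strand) for Tnfrsf1a, chr4:145246871-145247120 (minus strand) for Tnfrsf1b, chr17:23677450-23677699 (minus strand) for Tnfrsf12a and chr17:43016305-43016554 (plus strand) for Tnfrsf21. The RefSeq start of Tnfrsf1a lies downstream of its GENCODE start, so the Tnfrsf1a window falls wholly inside the gene span given above. The Tnfrsf12a window overlaps the edge of its own span.
Tnfrsf1a: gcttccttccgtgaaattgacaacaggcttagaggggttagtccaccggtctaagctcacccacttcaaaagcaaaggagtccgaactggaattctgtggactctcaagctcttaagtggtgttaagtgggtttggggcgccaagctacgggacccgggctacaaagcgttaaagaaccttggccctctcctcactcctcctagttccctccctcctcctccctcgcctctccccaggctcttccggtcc
Tnfrsf1b: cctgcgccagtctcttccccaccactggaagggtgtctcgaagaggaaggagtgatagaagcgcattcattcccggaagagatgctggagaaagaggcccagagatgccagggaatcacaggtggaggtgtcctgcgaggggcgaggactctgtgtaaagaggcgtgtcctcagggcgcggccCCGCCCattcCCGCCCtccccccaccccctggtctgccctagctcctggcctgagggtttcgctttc
Tnfrsf12a: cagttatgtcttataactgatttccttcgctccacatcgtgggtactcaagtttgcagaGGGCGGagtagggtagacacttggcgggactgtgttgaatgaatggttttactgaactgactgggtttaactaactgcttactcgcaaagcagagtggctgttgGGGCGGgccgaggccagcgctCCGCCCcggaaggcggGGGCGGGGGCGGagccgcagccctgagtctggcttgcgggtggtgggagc
Tnfrsf21: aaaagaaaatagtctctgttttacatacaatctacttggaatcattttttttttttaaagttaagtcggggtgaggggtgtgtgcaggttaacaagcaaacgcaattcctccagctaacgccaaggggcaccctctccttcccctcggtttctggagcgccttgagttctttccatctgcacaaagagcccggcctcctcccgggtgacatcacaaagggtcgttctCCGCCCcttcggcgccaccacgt
The GC box occurred 0 times in the window of Tnfrsf1a, 2 times in that of Tnfrsf1b, 5 times in that of Tnfrsf12a and 1 time in that of Tnfrsf21, and 32.7% of 32851 RefSeq windows of this length held at least 1. The Tnfrsf12a boxes began 191, 87, 66, 50 and 44 bases before the start site, the last 2 directly joined. The AP-1 motif TGANTCA, held by 6.75% of all windows, and the kappaB motif, held by 7.25%, did not occur in these 4 windows on either strand. Of the 7 receptors with a window, Fas held a TGANTCA match, 211 bases before its start. GC content was 55.6, 62.8, 58.8 and 50.4% in the 4 windows, in the order shown.

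The genes whose profile over the 9 libraries lay closest to a receptor were found by the Euclidean distance between gene-centred log2 CPM, among 12600 genes. Closest to Tnfrsf1a were Jpt1 (distance 0.389), Clic1 (0.419) and Ssh2 (0.447). Jpt1 held 8.02 to 8.86 CPM in uninjured libraries, 25.1 to 27.0 at 48 h and 21.7 to 28 at d14. Closest to Tnfrsf1b were Lrp1 (0.783), Trim30a (1.11) and Sparc (1.22), and all of them were likewise highest in 48 h replicate 3, Lrp1 at 68.8 CPM. For Tnfrsf12a they were Timeless (1.15), Plekho1 (1.15) and Arid5a (1.27), for Tnfrsf10b Selenow (0.554), Praf2 (0.704) and Chml (0.713), and for Tnfrsf21 Uck1 (0.413) and Mrps35 (0.444). Ltbr was closest to Rpl17 (0.178), Nutf2 (0.199) and Glrx3 (0.218), and Fas to Gtf2h4 (0.589), Bmp2k (0.644) and Mfhas1 (0.651). Cd40, with few counts, had no close neighbour, the nearest being Ap3m2 (2.67), Adamts10 (2.99) and Wdyhv1 (3.04). Among the receptors themselves, Tnfrsf1a and Tnfrsf10b were each other's nearest (1.01), and Tnfrsf1b was farther from every other receptor than these (2.32 to Tnfrsf12a, its nearest).

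The other 18 receptor genes of the family had a summed level of 7.62 to 27.4 CPM in a library, and 9 of the 18 passed the filter. At 48 h 3 were called higher and 0 lower (17.4 and 11.7% of all tested genes), and at d14 3 higher and 0 lower (25.1 and 20.7%). Without 48 h replicate 1 or 2 Cd27, at few counts and chosen after its values were seen, was called lower at d14, which made that count 1. The median log2 fold changes of the 9 tested genes were 1.36 and 1.48, beside 0.02 and 0.06 over all tested genes. The filter keeps a gene that is high in only 1 group, which can raise such medians and counts of higher genes. They hold for the 9 tested genes and not for all 18. Tnfrsf23, a decoy receptor of TRAIL in the mouse, held 0.174 to 0.330 CPM in the uninjured group, 3.25, 0.862 and 5.85 CPM at 48 h and 1.27 to 3.06 CPM at d14 (log2 3.81 ± 0.74, edgeR adjusted p = 0.00313, and 3.12 ± 0.72, adjusted p = 0.00437). Tnfrsf22, a near copy beside which reads can be divided differently by the counting, held 0.521 to 1.07, then 3.20, 1.15 and 4.29, and 1.41 to 2.49 CPM (1.98 ± 0.59 at 48 h, adjusted p = 0.0272, and 1.48 ± 0.58 at d14, adjusted p = 0.0572). The order of the 48 h libraries by each of these genes was that of their macrophage sums, and from 48 h replicate 2 alone the 48 h change was 1.83 for Tnfrsf23 (adjusted p = 0.194) and 0.62 for Tnfrsf22 (adjusted p = 0.634). Eda2r, the receptor of ectodysplasin A2, held 0.130 to 0.482 CPM in uninjured cells and 1.86 to 5.46 CPM at d14 (3.51 ± 0.71, adjusted p = 0.00182), and 0.842 to 1.89 CPM at 48 h (2.39 ± 0.70, adjusted p = 0.0248). Tnfrsf11a, the receptor of RANK ligand, held 2.01 to 6.91 CPM with no call. The third call at d14, chosen after its values were seen, was Tnfrsf9, a receptor of activated lymphocytes, at 0 to 0.130 CPM in uninjured and 0.387 to 1.98 CPM in d14 cells (4.68 ± 1.37, adjusted p = 0.016, and 0.0523 to 0.0579 as an adjusted p without uninjured replicate 2, uninjured replicate 3 or d14 replicate 2). Without uninjured replicate 1, uninjured replicate 2 or 48 h replicate 3 only 1 of these genes was called higher at 48 h, and of the 48 h calls those of Eda2r (adjusted p up to 0.0913) and Tnfrsf22 (up to 0.114, lost also without 48 h replicate 1) did not outlast such omissions.

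Of 18 ligand genes of the family 9 passed the filter, and Cd70, Tnfsf11, Lta and Tnfsf4 had 0 counts in all libraries. Tnf itself had 0, 2 and 0 counts in uninjured libraries, 0.785, 0 and 0.738 CPM at 48 h and 1.80, 0.594 and 1.01 CPM at d14. Over the groups these were 2, 30 and 103 counts, a ratio to uninjured of 36.8 at 48 h (95% counting interval 9.33 to 318) and 64.9 at d14 (17.5 to 543). The edgeR adjusted p was 0.0327 at 48 h and 0.00745 at d14. The 48 h call was lost without uninjured replicate 1 (0.123) or 3 (0.116), without 48 h replicate 1 (0.0698) or 3 (0.0862) and without d14 replicate 1 (0.0598) or 3 (0.0599), whereas the d14 call was kept without any 1 library.

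Eda, the ligand of the ectodysplasin receptors, held 0.211 to 0.660 CPM in uninjured cells, 1.07 to 1.87 at 48 h (log2 1.99 ± 0.62, adjusted p = 0.0329) and 2.41 to 4.30 CPM at d14 (3.11 ± 0.63, adjusted p = 0.0018). Its 48 h call was lost when uninjured replicate 1 (0.118), uninjured replicate 2 (0.099), 48 h replicate 2 (0.0575), 48 h replicate 3 (0.0748), d14 replicate 1 (0.0544) or d14 replicate 3 (0.0577) was left out. Tnfsf9, the ligand of Tnfrsf9 and the third ligand called at each time, was chosen after its values were seen. It had 0 counts in the uninjured group, 13 in the 48 h group and 60 in the d14 group, though d14 replicate 2 also had 0. Its 48 h and d14 levels were 10.6-fold and 25.2-fold that of 3 counts over the uninjured group. These folds leave out the counting error of the later counts, so they are not lower bounds. Its 48 h call (edgeR adjusted p = 0.0479) was lost when any uninjured or 48 h library, d14 replicate 1 or d14 replicate 3 was left out (0.0586 to 0.113), and its d14 call (0.0157) without d14 replicate 3 (0.0533). TWEAK (Tnfsf12), the ligand of Tnfrsf12a, held 11.1, 19.1 and 13.8 CPM in uninjured libraries, 16, 7.47 and 14.9 CPM at 48 h and 9.47, 8.79 and 7.76 CPM at d14. It was called lower at d14 (-0.76 ± 0.28, adjusted p = 0.0463), a call lost without uninjured replicate 2 (0.152) or 3 (0.0801), 48 h replicate 3 (0.0536) or any d14 library (0.0768 to 0.136), and without TMM scaling (-0.18, 0.629). TRAIL (Tnfsf10), the ligand of Tnfrsf10b, held 31.7, 21.2 and 17.2 CPM in the uninjured group, then 27.5, 8.05 and 17.3, and 35.0, 38.1 and 49.5 CPM at d14. It was higher at d14 than at 48 h (1.18 ± 0.38, adjusted p = 0.0395), which did not outlast leaving out uninjured replicate 2 (0.061), 48 h replicate 3 (0.107) or any d14 library (0.0718 to 0.12).

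In all, 3 of the 9 tested ligands were called higher at 48 h (17.4% of all genes), 3 higher and 1 lower at d14 (25.1 and 20.7%), and 1 higher between the times (16.8%). The 48 h count fell to 0 when uninjured replicate 1, 48 h replicate 3, d14 replicate 1 or d14 replicate 3 was left out, and to 1 without uninjured replicate 2, uninjured replicate 3 or 48 h replicate 1. The d14 count rose to 5 without 48 h replicate 2. Medians of the tested ligands were 1.99, 1.01 and 0.85. Tnf and Tnfsf9, with 2 and 0 counts over the uninjured group, passed the filter through libraries of injured kidneys. Such genes can raise the counts of higher genes and the medians against uninjured cells. These values hold for the tested ligands only and not for the whole list. Fasl and Cd40lg, the ligands of Fas and Cd40, did not pass the filter and reached at most 0.277 and 0.0434 CPM.

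All 18 adaptors and kinases that bind the receptors or act directly below them passed the filter, and their median log2 fold change was 0.06 at 48 h and 0.35 at d14 (all genes 0.02 and 0.06). At 48 h 4 were called higher (Edaradd, Traf2, Birc3 and Map3k14) and 0 lower, where 17.4 and 11.7% of all tested genes were. At d14 it was 7 higher and 2 lower, beside 25.1 and 20.7% of all genes. Without TMM scaling it was 15 higher and 0 lower, where 8732 of all 15519 tested genes were called in either direction. Traf2, the adaptor shared by Tnfrsf1a through TRADD and by Tnfrsf1b, held 7.06, 8.60 and 7.94 CPM in uninjured libraries, 14, 13.4 and 21.4 CPM at 48 h and 21.7, 20.9 and 24.5 CPM at d14. It rose 2.08-fold (log2 1.06 ± 0.20, edgeR adjusted p = 0.00248) and 2.85-fold (1.51 ± 0.20, adjusted p = 8.57e-05). Edaradd, the adaptor of the ectodysplasin receptor, went from 0.211 to 0.695 CPM to 3.70 to 6.64 and 6.69 to 11.5 CPM (3.34 ± 0.46 and 4.05 ± 0.47). Map3k14, the kinase NIK that Ltbr activates, was chosen after its values were seen. It rose 2.05-fold at d14 (1.03 ± 0.23, adjusted p = 0.00306), and its 48 h call (0.68 ± 0.23, adjusted p = 0.0438) was lost when any library other than 48 h replicate 2 was left out (0.0645 to 0.177).

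Birc3 and Birc2 encode the ubiquitin ligases cIAP2 and cIAP1, which TRAF2 brings to the receptors. Birc3 held 3.71, 3.30 and 3.53 CPM in uninjured libraries, 9.87, 4.74 and 16.6 CPM at 48 h and 30.8, 36.4 and 29.7 CPM at d14. The 3 groups did not overlap. It rose 3.05-fold at 48 h (adjusted p = 0.00499) and 9.17-fold at d14 (adjusted p = 2.57e-05), and was 3.01-fold higher at d14 than at 48 h (1.59 ± 0.32, adjusted p = 0.00425). From 48 h replicate 2 alone, its 48 h difference was 0.42 (adjusted p = 0.299). Birc2 rose at d14, from 17.3 to 19.9 CPM to 33.2 to 45.3 CPM (1.05 ± 0.16, adjusted p = 2.35e-04), and its 48 h difference was 0.06 ± 0.16 (adjusted p = 0.825). Map3k5, the kinase ASK1, was 1.70-fold lower at d14 (-0.77 ± 0.15, adjusted p = 0.00163) and Map3k7, the kinase TAK1, 1.26-fold lower (-0.33 ± 0.10, adjusted p = 0.0186). Without TMM scaling these were -0.20 and 0.23, and neither was called. The Map3k7 call was also lost without uninjured replicate 1 or d14 replicates 1 or 3 (adjusted p 0.0655 to 0.0706), which left 1 adaptor lower at d14. Between the times 3 adaptors were called higher and 1, Map3k5, lower (16.8 and 16.3% of all genes). Without TMM scaling it was 15 higher and 0 lower, where 7746 of all 15519 tested genes were called in either direction. The Map3k5 call was lost without 48 h replicate 1 or 2 or any d14 library (0.0848 to 0.111). Tab2 and Traf4, the most abundant of the list per kb of exon in each group, were not called.

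Among 10 genes that attach or trim ubiquitin chains at the receptors, 1 was called higher and 0 lower at 48 h, and 2 were called higher and 2 lower at d14. These counts are at or below the shares of all tested genes (17.4 and 11.7%, then 25.1 and 20.7%). Without TMM scaling 7 were higher and 0 lower at d14, and 8 were higher at d14 than at 48 h, where the scaled counts gave 2. In these comparisons 8732 and 7746 of all 15519 tested genes were then called in either direction. Tnfaip3 encodes A20, a ubiquitin-editing brake on NF-kappaB that NF-kappaB itself induces. It held 4.28, 4.7 and 3.6 CPM in uninjured libraries, 4.38, 3.88 and 5.72 CPM at 48 h and 10.8, 15.3 and 12.9 CPM at d14. Only the d14 libraries stood apart (3.10-fold over uninjured, log2 1.63 ± 0.24, edgeR adjusted p = 2.39e-04, and 2.76-fold over 48 h, adjusted p = 0.00138). Rnf31, the catalytic subunit of the linear ubiquitin ligase, also rose at d14, from 16.3 to 20.5 CPM to 27.2 to 31.3 CPM (0.71 ± 0.14, adjusted p = 0.00197). Its partner Sharpin was 1.34-fold lower (-0.43 ± 0.15, adjusted p = 0.0356) and the deubiquitinase Cyld 1.38-fold lower (-0.47 ± 0.14, adjusted p = 0.0206). Without TMM scaling both of these turned positive (0.14 and 0.11, not called). Leaving out any 1 uninjured or d14 library ended the call of at least 1 of them, and without d14 replicate 2 or 3 it left 0 genes lower. Ube2n, a conjugating enzyme for lysine-linked chains, was higher at 48 h than in uninjured cells (0.57 ± 0.12, edgeR adjusted p = 0.00418). It was lower at d14 than at 48 h (-0.52 ± 0.12, adjusted p = 0.00638, and a log2 difference of 0.07 without TMM scaling). The deubiquitinase Otud7b was not called.

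**Figure D5:**
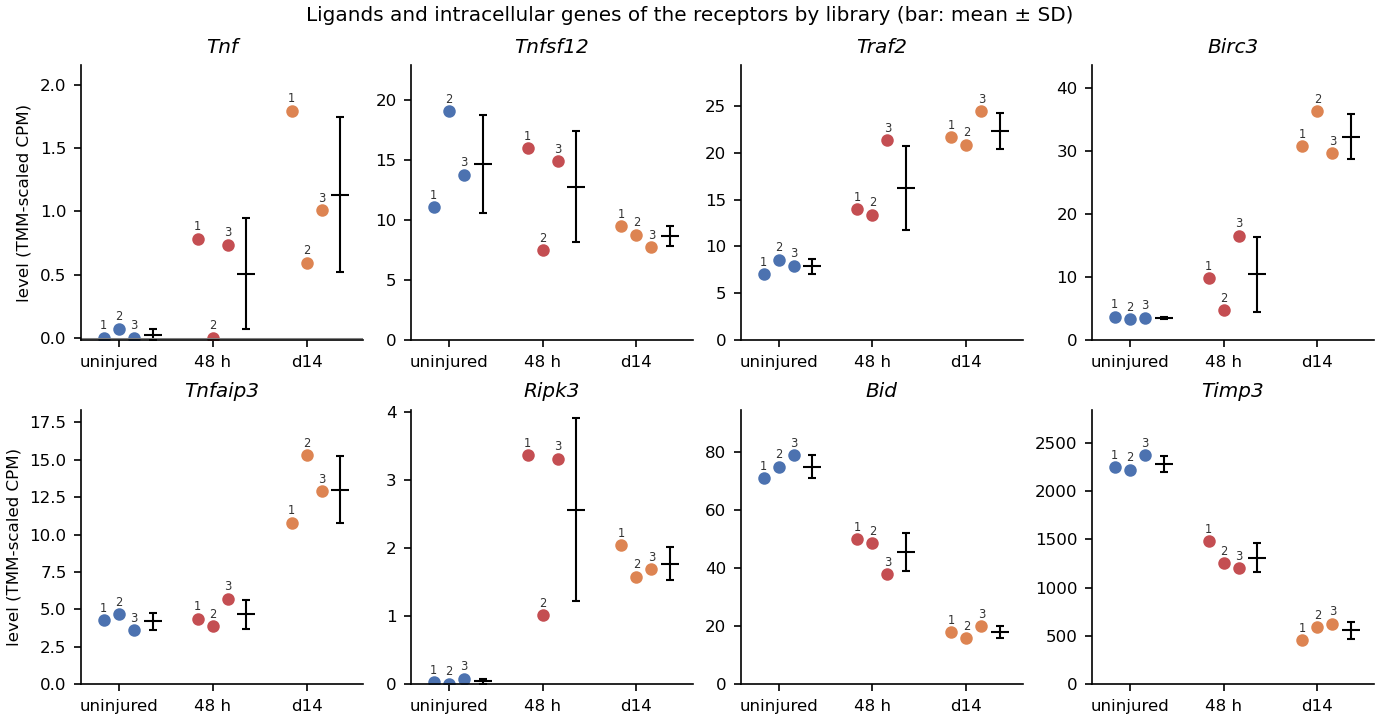
Level of 8 ligand and intracellular genes of the receptors in each library, as TMM-scaled CPM on linear axes, with the mean ± SD of 3 libraries. Birc3 and Tnfaip3 are highest at d14 (29.7 to 36.4 and 10.8 to 15.3 CPM), and Bid and Timp3 are lowest there (15.8 to 20.1 and 455 to 628 CPM).

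Of 15 genes of the death arm, 7 were called higher and 1 lower at 48 h (17.4 and 11.7% of all genes), 7 higher and 3 lower at d14 (25.1 and 20.7%), and 4 lower at d14 than at 48 h (16.3%). Without TMM scaling the counts of lower genes were 1 for d14 against uninjured cells and 1 for d14 against 48 h. Ripk3, the kinase of necroptosis, had 1, 0 and 3 counts in the uninjured libraries and 3.37, 1.01 and 3.32 CPM at 48 h and 2.04, 1.58 and 1.69 CPM at d14 (edgeR adjusted p = 6.13e-04 and 3.99e-04). Bak1, a pore-forming protein of mitochondria, held 7.44 to 9.09, 21.5 to 31.5 and 29.4 to 39.1 CPM in the 3 groups, and rose 3.26-fold and 4.33-fold (log2 1.71 ± 0.18 and 2.11 ± 0.18, adjusted p = 5.51e-05 and 3.18e-06). Bid, which caspase 8 cleaves to link the receptors to mitochondria, held 71.1, 75.1 and 79 CPM, then 50.0, 48.7 and 37.9, and 17.9, 15.8 and 20.1 CPM. It fell 1.65-fold at 48 h (-0.72 ± 0.13, adjusted p = 0.00242) and 4.19-fold at d14 (-2.07 ± 0.14, adjusted p = 6.67e-07), and was 2.54-fold lower at d14 than at 48 h, with 3 groups that did not overlap. Bid kept its call without TMM scaling, at -1.50 for d14 against uninjured.

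Casp8, the initiator caspase, rose at 48 h from a range of 19.6 to 21.7 CPM to 28.8 to 35.2 CPM (0.62 ± 0.15, adjusted p = 0.00854) and was 1.73-fold lower at d14 than at 48 h (adjusted p = 0.00232, and 0.43 as an adjusted p without TMM scaling). Cflar, which encodes its inhibitor c-FLIP, held 129 to 135 CPM in uninjured cells and 67.2 to 86.2 CPM at d14 (-0.77 ± 0.16, adjusted p = 0.00225). Without TMM scaling this was -0.22 (adjusted p = 0.237). Against 48 h it was -0.62 ± 0.16 (adjusted p = 0.0137, and 0.057 as an adjusted p without d14 replicate 1). Mcl1, an anti-apoptotic relative of Bcl2, rose 1.82-fold at 48 h (adjusted p = 0.00106) and 1.41-fold at d14 (adjusted p = 0.0133, and 0.062 as an adjusted p without d14 replicate 1).

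TNF receptors are also cut from the cell surface. Timp3, an inhibitor of the shedding protease ADAM17, held 2250, 2220 and 2370 CPM in uninjured libraries, 1480, 1250 and 1200 CPM at 48 h and 455, 587 and 628 CPM at d14. It fell 1.74-fold at 48 h (log2 -0.80 ± 0.15, edgeR adjusted p = 0.00296) and 4.09-fold at d14 (-2.03 ± 0.16, adjusted p = 2.02e-06). At d14 it was 2.35-fold lower than at 48 h (adjusted p = 2.22e-04). The 3 groups did not overlap, and all 3 differences kept their call without TMM scaling. Adam17 rose at d14 from 16.4 to 21.4 CPM to 41.4 to 44.6 CPM (1.23 ± 0.17, adjusted p = 1.24e-04). At 48 h it held 28.4, 21 and 33.5 CPM, and its call there (0.60 ± 0.17, adjusted p = 0.0206) was lost without uninjured replicate 1 (0.0784), uninjured replicate 2 (0.0752) or 48 h replicate 3 (0.0934). Rhbdf2, which encodes iRhom2, a carrier of ADAM17 to the surface, rose 2.39-fold at 48 h (adjusted p = 0.00449) and 2.56-fold at d14 (adjusted p = 0.00127).

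Erap1, reported to aid the shedding of TNF receptor 1 in human cells, rose 2.00-fold at d14 (adjusted p = 8.47e-04). In all, 4 of the 6 shedding genes were called higher and 1 lower at 48 h, beside 17.4 and 11.7% of all genes, and likewise at d14, beside 25.1 and 20.7%. Adam10 (0.48 ± 0.15 and 0.53 ± 0.15) was the least changed of those called higher. Its 48 h call was lost when uninjured replicate 1, uninjured replicate 2, 48 h replicate 2 or 48 h replicate 3 was left out (adjusted p 0.0671 to 0.122), and its d14 call without uninjured replicate 2 (0.075). The 48 h count of 4 fell to 1 without uninjured replicate 1, uninjured replicate 2 or 48 h replicate 3, and to 2 without TMM scaling. Adam17 was the 1 gene higher at d14 than at 48 h (0.62 ± 0.17, adjusted p = 0.0158), which was lost without d14 replicate 1 (0.0503), while there were 2 without 48 h replicate 3 and 3 without TMM scaling. Proximal tubule markers fell with Timp3, with 7 of 10 called lower at 48 h, 9 of 10 at d14 and 7 of 10 between the times.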

How the data were processed

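The values deposited by the authors are expected counts from RSEM, already whole numbers, so no rounding was needed, and they are not scaled for depth. Per the submitters' processing notes the tools include RSEM 1.2.28, STAR 2.6.1, bcl2fastq 2.20, R 3.6.3 and DESeq2 1.26.0, without their roles, and the builds GRCh38 and mm10; all identifiers are mouse. Neither the annotation release nor the strand setting of the counting is stated in the sources. Where copies are near-identical, RSEM divides their reads. The 92 spike-in rows were all at 0 and were not used. Coordinates (GRCm38) and exon lengths come from GENCODE M21, where 54487 of the 55385 identifiers match with their version.

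The test used edgeR 4.0.16 (R 4.3.3) with filterByExpr (minimum count 10, minimum total 15), TMM, and a robust quasi-likelihood fit with a mean per group over all 9 libraries, adjusted over 15519 genes. The SE is the log2 fold change over the square root of F. Kept genes held at least 99.89% of the counts of each library. A count of 0 allows 3 counts, or 0.0651 to 0.431 CPM depending on the library. Alternatives were DESeq2 1.42.0, limma 3.58.1 voom, other scalings and filters, a replicate block and leaving out each library. Leaving out 48 h replicates 1 and 3 together was chosen after seeing the data. P-values measure the spread between these 3 libraries a group. The fit was tested on simulated data with 200 changed genes, raised or lowered in the 48 h group only. That test does not cover the scaling of the d14 libraries.

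The receptors and all gene and marker lists were chosen with earlier results of these data known. Named are all 10 receptors, in each list the 2 called genes with the smallest p per comparison and direction and the 2 most abundant, and the 3 genes most like each receptor (mean log2 CPM above 0). A few genes that this rule takes are not reported here. Tables and figures used Python 3.11.15, pandas 2.3.3, scipy 1.17.1 and matplotlib 3.10.9.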

Additional observations from a re-analysis of the deposited data

Results flagged for a closer look

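For 3 receptors the change from uninjured cells differed between the 2 times, by the test of the difference itself, which is d14 against 48 h because both changes share the uninjured libraries. For Tnfrsf12a the change at d14 less that at 48 h was -1.21 on the log2 scale (edgeR adjusted p = 0.02). For Tnfrsf21 it was -0.80 (adjusted p = 0.00385). For Ltbr it was -0.37 (adjusted p = 0.0397). Of 20 alternatives, 13 kept the call of Tnfrsf12a, 19 that of Tnfrsf21 and 9 that of Ltbr. Without TMM scaling none of the 3 was called lower, and the sign of Ltbr turned.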

How the results depend on the processing

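Of 240 values for the 12 called receptor differences (20 alternatives each), 221 kept direction and call, 18 were no longer called and 1 reversed. Of the counts of receptors called against uninjured cells, those at 48 h were the same under all 20 alternatives. At d14 the 4 higher became 6 without TMM scaling (Cd40 and Ltbr added) and 5 by limma voom with or without sample weights (Cd40 added) and from 48 h replicate 2 alone (Tnfrsf11b added), and the 1 lower became 2 by limma voom with sample weights (Fas added). Between d14 and 48 h the 3 lower calls became 0 without TMM scaling, where 1 (Tnfrsf1a) was higher, and ranged from 1 to 3 when 1 library was left out; with the replicate block 1 was lower (Ltbr and Tnfrsf12a lost). Deviations of same-numbered libraries from their group means had correlations of -0.112 to 0.0216. With 3 libraries a group such deviations sum to 0, so these values cannot settle whether the numbers pair libraries. The labels do not say. The block changed no other receptor count. Without TMM scaling signs turned for Ltbr (0.44 for d14 against uninjured, called higher, and 0.21 for d14 against 48 h) and, against 48 h, for Tnfrsf1a (0.55), Tnfrsf10b (0.56) and Fas (0.07). It also turned Map3k5 (0.11) and Ube2n (0.07) against 48 h, and Map3k7 (0.23), Cyld (0.11) and Sharpin (0.14) against uninjured cells. With 48 h replicates 1 and 3 both left out, Cd40 was -6.40, Tnf -2.50 and Map3k14 -0.03 for 48 h against uninjured, and Tnfrsf1a 0.05, Tnfrsf1b 0.51 and Fas 0.37 for d14 against 48 h, the only 48 h library left having 0 counts of Cd40 and Tnf. Limma voom gave 0.04 for Tnfrsf10b between the times. Leaving out 1 library, the ranges that crossed 0 were -0.49 to 0.09 (Fas, 48 h against uninjured), -0.11 to 0.11 (Tnfrsf1a, d14 against 48 h) and -0.28 to 0.19 (Tnfrsf10b, d14 against 48 h). Apart from the scaling, library omissions and the stated 0 counts, the cause of these shifts was not tested. Depth limits Cd40, Tnfrsf11b, Tnfrsf19 and most ligands, of which 48 h replicate 2 (8036054 counts) could show least.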
